A study of Mus musculus with 9 samples.

Results

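The genes described here belong to the bone morphogenetic protein (BMP) pathway. They are the ligands Bmp2, Bmp4 and Bmp6, the activin subunit gene Inhba, the receptor Bmpr2, the inhibitory SMADs Smad6 and Smad7, and the ID factors Id1, Id2 and Id3. They were taken by symbol, and all 10 were found among the 18984 genes listed. Poly(A) RNA of whole lung from C57BL/6 mice was measured by sequencing, 24 hours after material was placed in the trachea of immunocompetent animals. Controls received normal saline, and the others received either conidia (the resting spores) or hyphal fragments (the filamentous form) of the mould Aspergillus fumigatus. Each group held 3 libraries, 9 in all, and no transgene or gene deletion is named for any group. Nothing in the labels ties libraries to animals, so p-values measure the spread between these libraries, which may be technical.

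As background, BMPs are secreted dimers that bring together type 1 and type 2 serine/threonine kinase receptors, which phosphorylate SMAD1, SMAD5 and SMAD9. These SMADs enter the nucleus with SMAD4 and switch on target genes, among them the ID genes and the inhibitory SMADs, which feed back on the receptors. In the lung the pathway is known for its part in airway branching and in pulmonary vessels, where loss of BMPR2 function underlies heritable pulmonary arterial hypertension. ID proteins are helix-loop-helix factors without a DNA-binding region. They pair with E proteins and keep them off DNA.

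Values are FPKM (fragments per kilobase of transcript, scaled to the mapped fragments of the library), which are scaled to transcript length, so levels can be set side by side between genes. The FPKM of a library summed to between 492540 and 561250. The smallest values, taken as 1 fragment, gave approximate relative depths of 0.967 to 1.083 (control replicate 1 set to 1). Only values close to a gene's smallest entered that estimate, so it could not have shown a large difference in depth. The median tested gene stood at 10.98 to 11.46 FPKM in control, 10.32 to 11.16 in the conidia group and 8.01 to 8.80 in the hyphae group. Over the 13761 genes tested, the median log2 difference was −0.37 between hyphae and control, −0.29 between hyphae and conidia and −0.07 between conidia and control. Each comparison was therefore repeated after every library had been divided by a median-of-ratios factor, and those values are called rescaled. Lung markers were present in every library, with Sftpc of alveolar type 2 cells at 16041 to 24128 FPKM in control, and Pecam1 of endothelial cells at 124 to 193. Cardiac muscle markers were also present. They summed to 312 to 1042 FPKM in control, 193 to 297 after conidia and 74.5 to 1637 after hyphae, and their source was not tested. In bulk tissue, fewer cells of a type and less RNA per cell cannot be told apart.

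Promoter sequences are shown for Id2 and Id3, which rose together after hyphae, and for Smad6, a feedback gene without a call, because letters of a searched SMAD or BMP motif stand in all 3. Of the 10 genes 7 had an entry in the RefSeq promoter table (build GRCm38.p6), which spans 250 bases before to 50 after a gene's start. Bmp2, Smad7 and Id1 had none. The motifs searched were GGCGCC, a GC-rich BMP response core that reads the same on both strands, CAGAC with its reverse complement GTCTG, a SMAD-binding element, and the palindrome GTCTAGAC, which sets GTCT and AGAC back to back and holds neither CAGAC nor GTCTG. No match of a motif overlapped a match of another in these 7 windows. The stretches below run 5′ to 3′ on the gene's strand and end at its start, or 4 bases past it for Smad6, with the matches in capitals.
Id2, chr12:25096093-25096342, minus strand: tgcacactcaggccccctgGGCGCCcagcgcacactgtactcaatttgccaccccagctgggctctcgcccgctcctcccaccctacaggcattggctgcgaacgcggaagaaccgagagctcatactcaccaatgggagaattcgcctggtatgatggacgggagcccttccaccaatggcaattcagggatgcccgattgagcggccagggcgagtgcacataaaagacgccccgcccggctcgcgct
Id3, chr4:136143572-136143821, plus strand: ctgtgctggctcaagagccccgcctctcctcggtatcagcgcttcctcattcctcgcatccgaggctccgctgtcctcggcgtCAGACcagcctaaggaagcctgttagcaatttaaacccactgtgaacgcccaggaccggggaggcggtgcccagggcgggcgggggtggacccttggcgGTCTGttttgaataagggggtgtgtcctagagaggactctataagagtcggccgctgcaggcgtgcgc
Smad6, chr9:64022056-64022159, minus strand: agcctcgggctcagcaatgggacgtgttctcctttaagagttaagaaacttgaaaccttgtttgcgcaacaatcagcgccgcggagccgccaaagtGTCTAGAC

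The GGCGCC of Id2 began 231 bases before its start, and GGCGCC was also found 105 bases before the start of Bmpr2. These are 2 of the 7 windows, and 11.9% of all 32851 promoters in the table hold it. Id3 held CAGAC on both strands, 167 and 68 bases before its start, and Bmp6 held it 119 bases before its start. CAGAC or GTCTG stands in 49.6% of all promoters of this length. The palindrome GTCTAGAC spanned the start of Smad6, from 4 bases before it to 4 after. It stands in 70 of the 32851 promoters (0.213%). A match describes letters in a window and not a bound site, and no binding was measured.

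In control lung the ID factors lay at the top of the 10 genes and the ligands Bmp2 and Inhba at the bottom. Mean FPKM was 102 ± 15.8 for Id3 (mean ± SD, n = 3 for every mean ± SD given), 78.9 ± 20.3 for Id1 and 65.7 ± 8.63 for Id2. Bmp6 stood at 63.4 ± 21.6, Smad6 at 61.5 ± 6.66, Bmpr2 at 51.6 ± 14.8 and Bmp4 at 37.5 ± 5.57. From Id3 down to Bmp4 the ranges of each pair of neighbours overlapped. Smad7 at 21.8 ± 4.19, Bmp2 at 3.07 ± 0.265 and Inhba at 0.310 ± 0.269 FPKM followed with no overlap between neighbours. After hyphae Id1 stood first at 171 ± 53.0 FPKM, followed by Id3 at 156 ± 41.0 and Id2 at 146 ± 55.7. These 3 overlapped one another, and all of their libraries lay above all those of the next gene, Smad6.

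**Figure D1:**
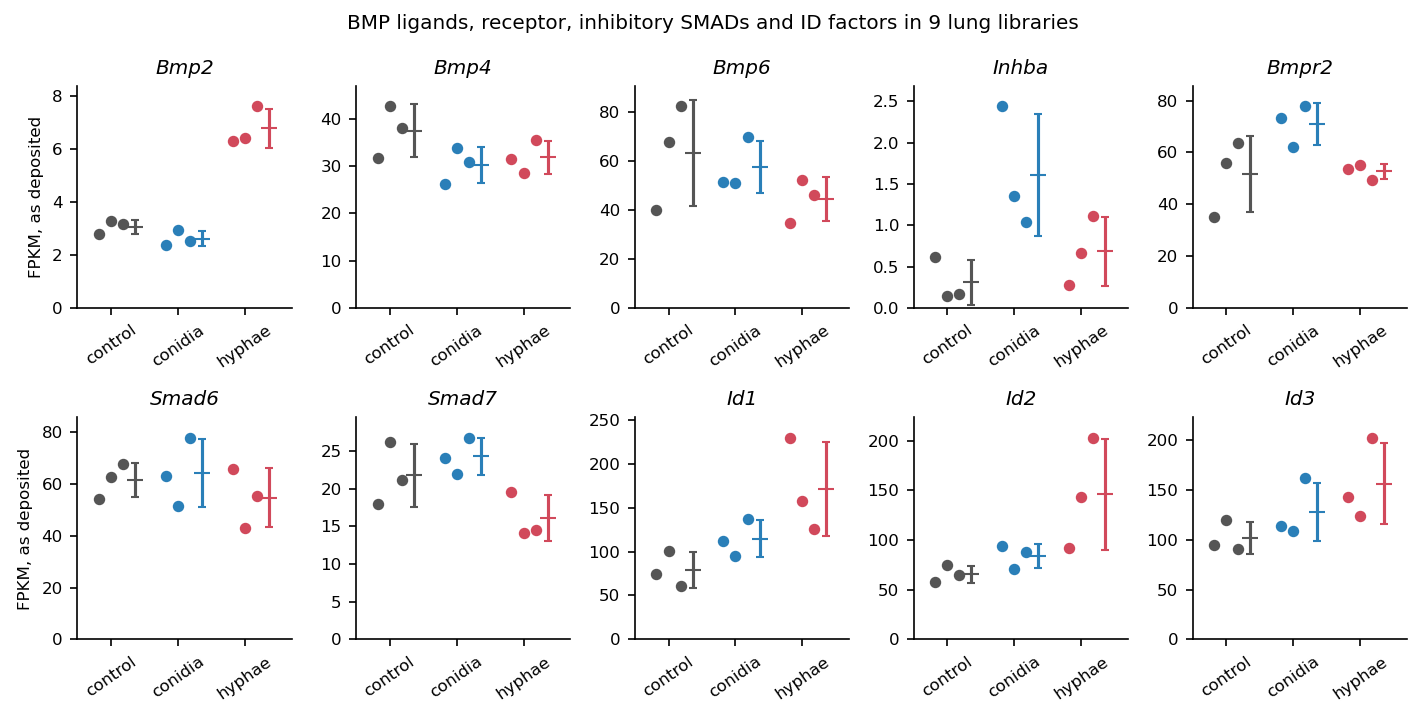
Deposited FPKM (vertical axis, linear from 0) of the 10 genes in control, conidia and hyphae libraries. Each point is 1 library and the bar beside it is the mean ± SD of 3. The hyphae libraries lie above all controls for Bmp2, Id1, Id2 and Id3, and the conidia libraries do so for Inhba.

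Hyphae were compared with saline to ask which genes of the pathway had changed 1 day after the filamentous form was given. The ID factors Id1, Id2 and Id3 and the ligand Bmp2 rose, on the deposited and on the rescaled scale. Bmp4, Bmp6, Inhba, Bmpr2 and Smad6 did not pass the test on either scale. Smad7 was called lower as deposited and stood at no difference after rescaling. So 4 of 10 genes were called higher, beside 14.9% of all genes tested, and 1 was called lower, beside 50.0%. After rescaling 4 were called higher, beside 30.0% of all genes, and 0 lower in limma, beside 29.3%, with 0 of 10 lower at an unadjusted p under 0.05. A count of 4 in 10 is near that rescaled background. The median log2 difference of the 10 genes was 0.21 as deposited and 0.50 rescaled, against −0.37 and 0.00091 for all genes tested.

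Bmp2, a ligand made by endothelial and stromal cells, stood at 2.77, 3.28 and 3.15 FPKM in control replicates 1 to 3. It stood at 2.38, 2.95 and 2.52 after conidia and at 6.29, 6.42 and 7.61 after hyphae. All hyphae libraries were above all others, and the control and conidia libraries overlapped. The log2 difference between hyphae and control was 0.93 (SE 0.12, adjusted p = 0.000212, limma with Benjamini-Hochberg adjustment over all genes), and 1.29 rescaled (SE 0.12, adjusted p = 6.87e-05). The call held without each of the 9 libraries in turn, with log2 differences of 0.86 to 0.98 as deposited and 1.19 to 1.37 rescaled.

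Bmp4, a ligand of the distal lung epithelium and mesenchyme, did not follow Bmp2. It stood at 31.6, 42.7 and 38.2 FPKM in control, 26.3, 33.8 and 30.8 after conidia, and 31.5, 28.6 and 35.6 after hyphae. The groups overlapped, and the log2 difference between hyphae and control was −0.22 (95% interval −0.54 to 0.09) as deposited and 0.20 rescaled (adjusted p = 0.189 and 0.230). The ratio of Bmp2 to Bmp4 was also taken inside each library. As a difference of log2(FPKM + 1) it was −3.11, −3.35 and −3.24 in control, −3.01, −3.14 and −3.18 after conidia, and −2.16, −2.0 and −2.09 after hyphae. The hyphae libraries lay above all others, by 1.15 over control. The exact two-sided permutation p was 0.1, the smallest that 3 against 3 libraries can give. The added 1 weighs on the low Bmp2 values, and with a pseudocount of 0.1 the difference was 1.34.

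Bmp6, a ligand expressed in endothelial cells, which also controls hepcidin in the liver, varied most among the controls of the well-expressed ligands. It stood at 40.0, 67.8 and 82.5 FPKM in control replicates 1 to 3, at 51.5, 51.2 and 70.1 after conidia and at 34.8, 52.3 and 46.4 after hyphae. The groups overlapped and the log2 difference between hyphae and control was −0.46 (95% interval −1.06 to 0.14, adjusted p = 0.156), and −0.04 rescaled. Without control replicate 1, the lowest control, the deposited difference was −0.76 with an adjusted p of 0.0144. The same library had the lowest summed endothelial markers of the controls, 1762 FPKM against 2371 and 2538 in the others. Their part in the value was not tested.

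Inhba encodes the subunit that forms activin A, a ligand of the activin arm that signals through SMAD2 and SMAD3. It was near the detection limit in control, at 0.62, 0.14 and 0.17 FPKM. It stood at 2.44, 1.35 and 1.04 after conidia and at 0.28, 0.66 and 1.11 after hyphae. All conidia libraries lay above all controls, and the hyphae libraries overlapped with both groups. Inhba passed the filter on low values only through the conidia libraries and hyphae replicate 3, which are the 4 that reached 1 FPKM. Between hyphae and control its log2 difference was 0.35 (95% interval −0.22 to 0.92, adjusted p = 0.244) and 0.50 rescaled, where it was called without hyphae replicate 1 (0.72, adjusted p = 0.0435).

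Bmpr2, the type 2 BMP receptor, stood at 35.2, 56.0 and 63.8 FPKM in control, 73.2, 62.1 and 77.9 after conidia and 53.6, 55.2 and 49.4 after hyphae. The hyphae libraries fell within the range of the controls, with a log2 difference of 0.07 (95% interval −0.38 to 0.52, adjusted p = 0.770) and of 0.49 rescaled (adjusted p = 0.0817). Without control replicate 1 the deposited difference turned to −0.18, without a call. After rescaling all hyphae libraries lay above all controls, at 59.5 to 68.0 against 30.2 to 57.1 rescaled FPKM, and without control replicate 3 the rescaled difference was called (0.68, adjusted p = 0.0293).

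Of the inhibitory SMADs, Smad6 prefers BMP receptors and Smad7 also blocks TGF-beta receptors. Smad6 stood at 54.4, 62.7 and 67.5 FPKM in control, 63.2, 51.7 and 77.9 after conidia and 65.7, 43.0 and 55.3 after hyphae. The groups overlapped throughout, with a log2 difference between hyphae and control of −0.18 (95% interval −0.60 to 0.24, adjusted p = 0.409) and 0.24 rescaled (adjusted p = 0.296). Smad7 stood at 17.9, 26.2 and 21.2 FPKM in control, 24.1, 22.0 and 26.8 after conidia and 19.6, 14.1 and 14.5 after hyphae. Its hyphae and control libraries overlapped through hyphae replicate 1. The deposited log2 difference was −0.41 (SE 0.16, adjusted p = 0.04996) and the rescaled one −0.0049 (adjusted p = 0.981). The deposited call was lost in 7 of the 9 fits that left out 1 library, namely without control replicate 2 (0.176) or 3 (0.0927), without any single conidia library (0.0549 to 0.0662) or without hyphae replicate 2 (0.157) or 3 (0.135). It was also lost without the filter on low values, without the trend and in a fit of these groups alone. The ratio of Smad7 to Smad6 inside a library overlapped between hyphae and control, at a mean log2 of −1.70 ± 0.156 against −1.47 ± 0.213.

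Id1, the ID gene most used as a readout of BMP signalling in endothelial cells, stood at 74.9, 101 and 60.8 FPKM in control replicates 1 to 3. It stood at 112, 94.9 and 137 after conidia and at 230, 158 and 126 after hyphae. All hyphae libraries lay above all controls, and the lowest of them below the highest conidia library. The log2 difference between hyphae and control was 1.09 (SE 0.25, adjusted p = 0.00467) and 1.52 rescaled (SE 0.24, adjusted p = 0.000916). A call was made without each of the 9 libraries in turn, with 0.86 to 1.29 as deposited.

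Id2, which some lymphoid and some dendritic cells also need for their development, stood at 57.4, 74.6 and 65.2 FPKM in control. It stood at 94.2, 71.0 and 87.9 after conidia and at 91.8, 144 and 203 after hyphae. All hyphae libraries lay above all controls, and hyphae replicate 1 lay below the highest conidia library. The log2 difference between hyphae and control was 1.08 (SE 0.26, adjusted p = 0.00559) and 1.5 rescaled (SE 0.30, adjusted p = 0.00263). This call, too, was made without each of the 9 libraries in turn, with 0.80 to 1.37 as deposited.

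Id3, a close relative of Id1, stood at 94.7, 120 and 90.8 FPKM in control, 114, 109 and 162 after conidia and 143, 124 and 202 after hyphae. All hyphae libraries lay above all controls, with the closest pair at 124 and 120. The log2 difference was 0.59 (SE 0.21, adjusted p = 0.0356) and 1.02 rescaled (SE 0.22, adjusted p = 0.00423). As deposited its call was lost without control replicate 1 (0.0945) or 3 (0.105) or hyphae replicate 1 (0.0514) or 3 (0.119), whereas rescaled it was called in all 9 such fits. Without control replicate 3 or hyphae replicate 3 both Id3 and Smad7 were lost and 3 of the 10 genes were called, instead of 5.

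**Figure D2:**
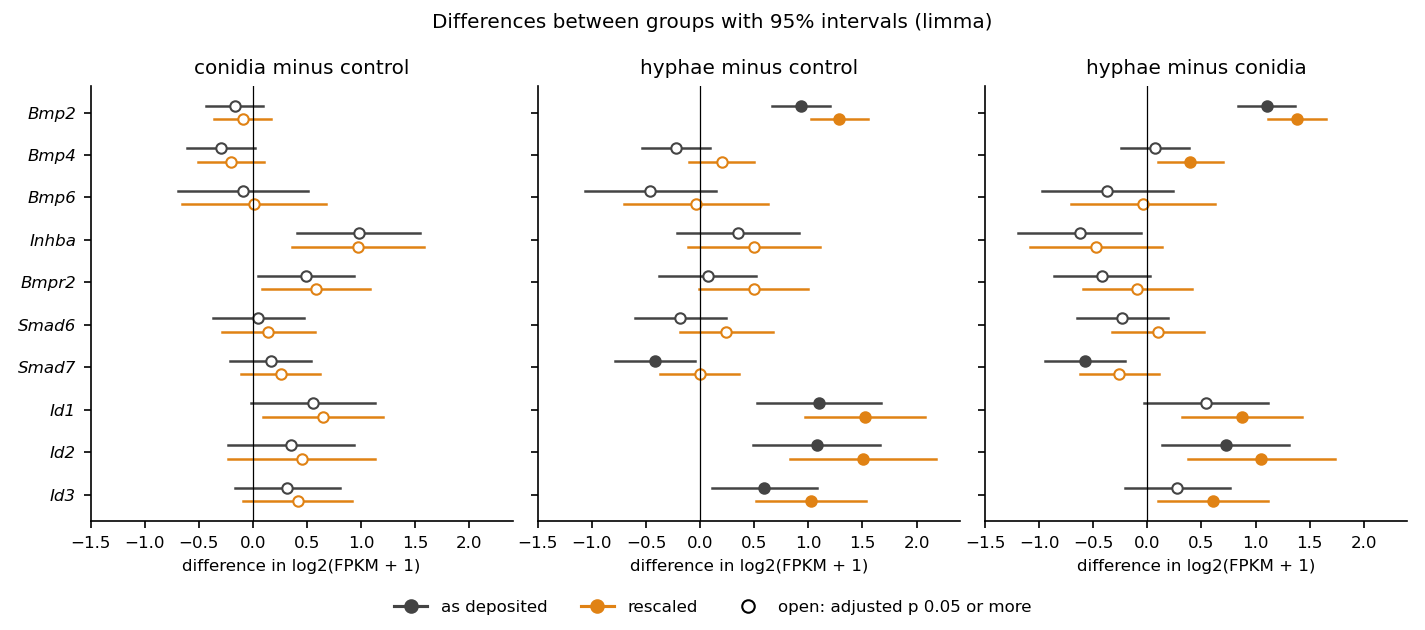
Difference in log2(FPKM + 1) between groups (horizontal axis) for each gene, with 95% intervals from limma, as deposited (grey) and rescaled (orange). Filled points have an adjusted p under 0.05. Bmp2, Id1, Id2 and Id3 are filled on both scales between hyphae and control, and no point is filled between conidia and control.

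The ID factors did not share an order among the hyphae libraries. Id1 was highest in hyphae replicate 1 and lowest in replicate 3, while Id2 was lowest in replicate 1 and highest in replicate 3. The log2 ratio of Id2 to Id1 was −1.31, −0.14 and 0.68 in hyphae replicates 1 to 3, against −0.38, −0.43 and 0.10 in control and −0.25, −0.41 and −0.64 after conidia. Its mean was −0.26 ± 1.0 in hyphae and −0.24 ± 0.293 in control (exact permutation p = 1.0), and its SD was larger in hyphae than in the other groups. Neutrophil markers varied over the same libraries. The 12 markers, led by S100a8, S100a9 and Ly6g, summed to 136 to 158 FPKM in control, 3170, 877 and 2278 after conidia and 704, 2011 and 6197 after hyphae. Of these markers 10 were called higher after hyphae on both scales, beside 14.9% of all genes as deposited and 30.0% rescaled. After conidia their median log2 difference was 2.77, and 3 were called higher as deposited and 0 rescaled in limma, beside 0.596% and 0.298%. Between hyphae and conidia 2 were called higher and 1 lower on both scales, beside 12.7% and 42.5% as deposited and 25.4% each rescaled. Cardiac markers summed to 164, 74.5 and 1637 FPKM in hyphae replicates 1 to 3. Some dendritic cells need Id2, and the marker list was not limited to those. Of its 6 markers 5 were called lower after hyphae as deposited and 3 rescaled, beside 50.0% and 29.3% of all genes. The part of any of these in the ID levels was not tested.

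**Figure D3:**
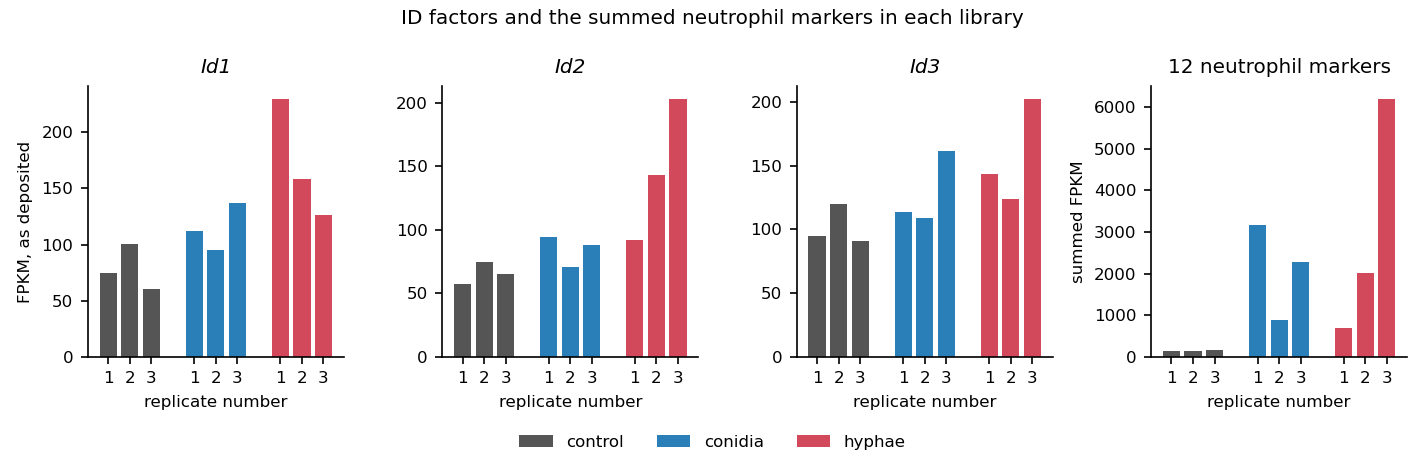
Deposited FPKM of Id1, Id2 and Id3 and the summed FPKM of 12 neutrophil markers in each library (bars from 0, replicate numbers on the horizontal axis, linear scales that differ between panels). In hyphae libraries Id2 and the neutrophil sum are lowest in replicate 1 and highest in replicate 3, and Id1 has the reverse order.

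Endothelial cells are a main site of BMP signalling in the lung, so the genes were also set against 16 endothelial markers, led by Pecam1, Cdh5 and Kdr. These summed to 1762 to 2538 FPKM in control, 2451 to 2769 after conidia and 2451 to 2598 after hyphae, and none was at 0 in any library. As deposited 5 of the 16 were called higher after hyphae and 3 lower, beside 14.9% and 50.0% of all genes. Rescaled, 7 were called higher and 2 lower, beside 30.0% and 29.3%. Cdh5 stood at 170 ± 58.5 FPKM in control and 294 ± 39.5 after hyphae, and Kdr at 55.5 ± 14.9 and 29.8 ± 2.39. Relative to the mean of these markers inside each library, Id1 was higher by a log2 of 1.10, Id2 by 1.08 and Bmp2 by 0.94 after hyphae than in control, each without overlap (exact permutation p = 0.1). Id3 was higher by 0.60 with overlap (p = 0.2, exact permutation test). Bmp6 was lower by this measure, at −1.21 ± 0.260 after hyphae and −0.75 ± 0.233 in control, without overlap (exact permutation p = 0.1). There were 16 such ratios in each of 3 comparisons, and 0.1 was the smallest p possible, so none could pass after adjustment.

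The spores were set against saline in the same way. In limma 0 of the 10 genes were called on either scale, where 0.690% of all genes tested were called as deposited and 0.342% rescaled. At an unadjusted p under 0.05 in limma stood 2909 of all 13761 genes tested as deposited and 2912 rescaled. Beside them there were 2 of the 10 genes as deposited and 3 rescaled. Inhba, among these on both scales, had the largest difference, a log2 of 0.98 (95% interval 0.41 to 1.54, adjusted p = 0.0938; 0.97 and 0.113 rescaled). It passed the filter on low values only through the conidia libraries and hyphae replicate 3, so its difference, interval and p-values are given as a description. Bmpr2 stood at 0.49 (95% interval 0.04 to 0.94, adjusted p = 0.205; 0.58 and 0.186 rescaled), where control replicate 3 lay within the conidia range. Id1 stood at 0.55 (95% interval −0.02 to 1.12, adjusted p = 0.250; 0.65 and 0.188 rescaled), Id2 at 0.35 (−0.23 to 0.94, adjusted p = 0.439) and Id3 at 0.32 (−0.17 to 0.80, adjusted p = 0.410). The intervals of the ID factors ended at 0.80 to 1.12, so rises up to those sizes remain compatible with these values. Bmp2 (−0.17), Bmp4 (−0.30), Bmp6 (−0.09), Smad6 (0.05) and Smad7 (0.16) had no call. Rescaled, these stood at −0.097, −0.20, 0.0059, 0.14 and 0.25, also without a call. The median of the 10 genes was 0.24, against −0.07 for all genes tested. Hyphae and conidia share the control libraries, so these values and those above are not independent.

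Hyphae and conidia were then compared directly. As deposited 2 of 10 genes were called higher after hyphae, beside 12.7% of all genes, and 1 lower, beside 42.5%. After rescaling 5 were called higher, beside 25.4% of all genes. Bmp2 was higher by a log2 of 1.10 (SE 0.12, adjusted p = 0.000141), and by 1.38 rescaled, and was called without each library in turn. Id2 was higher by 0.72 (SE 0.26, adjusted p = 0.0396) and by 1.05 rescaled (adjusted p = 0.0173). Its deposited call was lost in 7 of 9 fits that left out 1 library (adjusted p 0.051 to 0.118), all but those without control replicate 1 or hyphae replicate 1. It was also lost without the filter on low values (0.0553) and in a fit of these groups alone (0.0706). Its rescaled call was lost without conidia replicate 2 (0.058) or hyphae replicate 2 (0.0565). Id1 (0.54, adjusted p = 0.0959) and Id3 (0.28, adjusted p = 0.297) were called only after rescaling, by 0.88 (adjusted p = 0.0166) and 0.61 (adjusted p = 0.0475). Rescaled, Id1 lost its call without conidia replicate 2 (0.0532), and Id3 without any single control library (0.0525 to 0.0629), conidia replicate 1 (0.108) or 2 (0.143) or hyphae replicate 3 (0.144). Bmp4 differed by 0.07 as deposited and was called higher by 0.40 rescaled (adjusted p = 0.0344), a call that was lost on leaving out any single conidia library (0.0511 to 0.0955) or hyphae replicate 2 (0.0546) or 3 (0.111). Smad7 was called lower by −0.58 as deposited (SE 0.16, adjusted p = 0.0155), with all hyphae libraries below all conidia libraries, and stood at −0.26 rescaled (adjusted p = 0.205). That deposited call was lost without conidia replicate 3 (0.0583) or hyphae replicate 2 (0.0609) or 3 (0.0529). Without conidia replicate 2, only Bmp2 was called after rescaling, and without hyphae replicate 2 only Bmp2 was called as deposited. Inhba (−0.63, adjusted p = 0.0592; called without conidia replicate 3 or hyphae replicate 3, 0.0456 and 0.0366) and Bmpr2 (−0.42, adjusted p = 0.0986; called without control replicate 1, 0.014, and in a fit of these groups alone, 0.0223) did not pass. As deposited Id1 was called without hyphae replicate 3 (0.0436). The hyphae libraries of Bmpr2 lay below all conidia libraries on that scale. The test of Inhba is a description here too, because of how it passed the filter.

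The rest of the pathway was described through 8 lists of 95 genes. The files held 94 of them, and 74 passed the filter. Between hyphae and control 16 of the 74 were called higher and 25 lower as deposited, and 35 and 15 rescaled. Of all genes tested 14.9% were called higher and 50.0% lower as deposited, and 30.0% and 29.3% rescaled. The counts of each list below are read against these shares, and none is called particular to its list. Among 8 other ligands tested 3 were called higher on both scales and 2 lower on both. Gdf15, a stress-induced member of the superfamily, rose from 2.14 ± 0.464 to 108 ± 79.7 FPKM (log2 4.68, SE 0.64, adjusted p = 0.000339; 5.04 rescaled). Inhbb, another activin subunit, rose from 7.67 ± 1.54 to 22.3 ± 4.17 FPKM (1.43, and 1.82 rescaled). The third, Gdf5, a growth factor known from joints, stood at 0.337 ± 0.0635 FPKM in control and 1.79 ± 0.295 after hyphae. It entered the test only through the hyphae libraries, the only ones to reach 1 FPKM, so its call is given as a description. Bmp3, which antagonises other BMPs, fell from 15.1 ± 2.98 to 4.93 ± 0.751 FPKM (−1.43, and −1.05 rescaled). Bmp10, a cardiac ligand of ALK1 that was not tested, was listed at 0 in all control and conidia libraries and at 0.08, 0.16 and 10.2 FPKM in hyphae replicates 1 to 3. The last is the library with the highest cardiac marker sum.

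Receptors and SMADs moved both ways. Of 12 receptors and co-receptors tested 1 was called higher and 6 lower as deposited, and 5 and 2 rescaled. Tgfbr3, the co-receptor betaglycan, rose from 15.5 ± 0.471 to 32.3 ± 3.29 FPKM (1.01, and 1.42 rescaled). Bmpr1b, a type 1 BMP receptor, fell from 3.62 ± 1.19 to 0.703 ± 0.526 FPKM (−1.45, and −1.22 rescaled), and Acvr2b, a type 2 activin receptor, from 4.33 ± 0.381 to 1.06 ± 0.259 (−1.38, and −1.10 rescaled). Of the SMADs that carry the signal, Smad1 rose from 8.52 ± 0.621 to 15.3 ± 1.09 FPKM (log2 0.78, SE 0.09, adjusted p = 0.000169; 1.18 rescaled). Smad5, which acts beside Smad1 below BMP receptors, fell from 16.5 ± 0.777 to 9.01 ± 0.571 FPKM (−0.81, SE 0.10, adjusted p = 0.000188; −0.41 rescaled). These 2 moved in opposite directions on both scales. The list of 6 such SMADs had 1 called higher and 2 lower as deposited, and 3 and 1 rescaled, with a median log2 difference of −0.02 and 0.39.

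Of 9 intracellular and membrane brakes 4 were called higher and 3 lower after hyphae as deposited, and 5 and 2 rescaled. Skil, a SMAD corepressor, rose from 12.8 ± 1.73 to 34.7 ± 8.56 FPKM (1.35, and 1.76 rescaled), Tgif1, another corepressor, by 1.21 (1.62 rescaled) and Ppm1a, a phosphatase, by 0.97 (1.39 rescaled). Pmepa1, a membrane protein that sequesters SMAD2 and SMAD3, fell from 29.6 ± 1.27 to 13.6 ± 0.599 FPKM (−1.07, and −0.66 rescaled). Of 10 secreted antagonists tested 0 were called higher in limma as deposited (0 at an unadjusted p under 0.05) and 1 lower, and 5 and 1 rescaled. Fst, which binds activins, was named after its values were seen. It was the 1 secreted antagonist called higher after conidia, from 1.94 ± 0.250 to 7.53 ± 3.35 FPKM (log2 1.47, adjusted p = 0.047), and this call was lost on rescaling (adjusted p = 0.0594).

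Of 9 BMP targets tested beside the 3 ID factors 3 were called higher and 3 lower as deposited, and 5 and 3 rescaled. Lmcd1, a LIM-domain cofactor, rose from 12.1 ± 2.37 to 63.0 ± 16.3 FPKM (2.27, and 2.68 rescaled) and Gata2, a haematopoietic and endothelial factor, from 38.5 ± 9.92 to 83.3 ± 12.3 (1.12, and 1.54 rescaled). Id4, the remaining ID gene, fell from 7.92 ± 1.52 to 3.02 ± 0.560 FPKM (log2 −1.15, SE 0.20, adjusted p = 0.000957; −0.80 rescaled), against the direction of the other ID genes. Hey1, an effector that Notch and BMP signalling share, fell from 35.5 ± 4.54 to 15.7 ± 5.82 FPKM (−1.18, and −0.77 rescaled). A further list held E proteins and other helix-loop-helix factors. Of 7 tested 0 were called higher in limma (0 at an unadjusted p under 0.05) and 5 lower as deposited, and 1 and 3 rescaled. Their median log2 difference was −0.64 as deposited and −0.29 rescaled. Tcf3, the E protein E2A that ID proteins bind, fell from 23.0 ± 1.27 to 11.8 ± 0.818 FPKM (−0.91, SE 0.11, adjusted p = 0.000168; −0.51 rescaled). Lyl1, a blood and endothelial factor, fell from 11.1 ± 2.60 to 1.51 ± 0.370 FPKM (−2.26, and −1.94 rescaled), and Tcf21, a fibroblast factor, by −1.35 (−0.93 rescaled).

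In the neighbouring TGF-beta arm 4 of 13 genes were called higher after hyphae and 1 lower as deposited, and 8 and 1 rescaled. Ctgf, a matricellular target, rose from 72.8 ± 17.9 to 160 ± 11.1 FPKM (1.16, and 1.58 rescaled), Tgfbr2, the type 2 receptor, by 0.61 (1.03 rescaled) and Tgfb3, a ligand, fell by −0.94 (−0.55 rescaled). After conidia 2 of the 74 list genes were called higher as deposited and 1 rescaled, beside 0.596% and 0.298% of all genes. Tgfbi, a secreted matrix protein, was the only gene of the 8 lists called on both scales after conidia. It rose from 26.2 ± 2.28 to 59.4 ± 6.09 FPKM (log2 1.15, SE 0.14, adjusted p = 0.0244; 1.24 and 0.0453 rescaled), and after hyphae stood at 36.1 ± 6.12, also called higher than control (0.44, adjusted p = 0.0191; 0.86 and 0.00245 rescaled). The number of genes called between conidia and control was 0 in limma when any single control library or conidia replicate 3 was left out (1878 to 2631 at an unadjusted p under 0.05), so both calls for conidia were lost there. It was 1 without conidia replicate 1 and 1535 without conidia replicate 2.

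**Figure D4:**
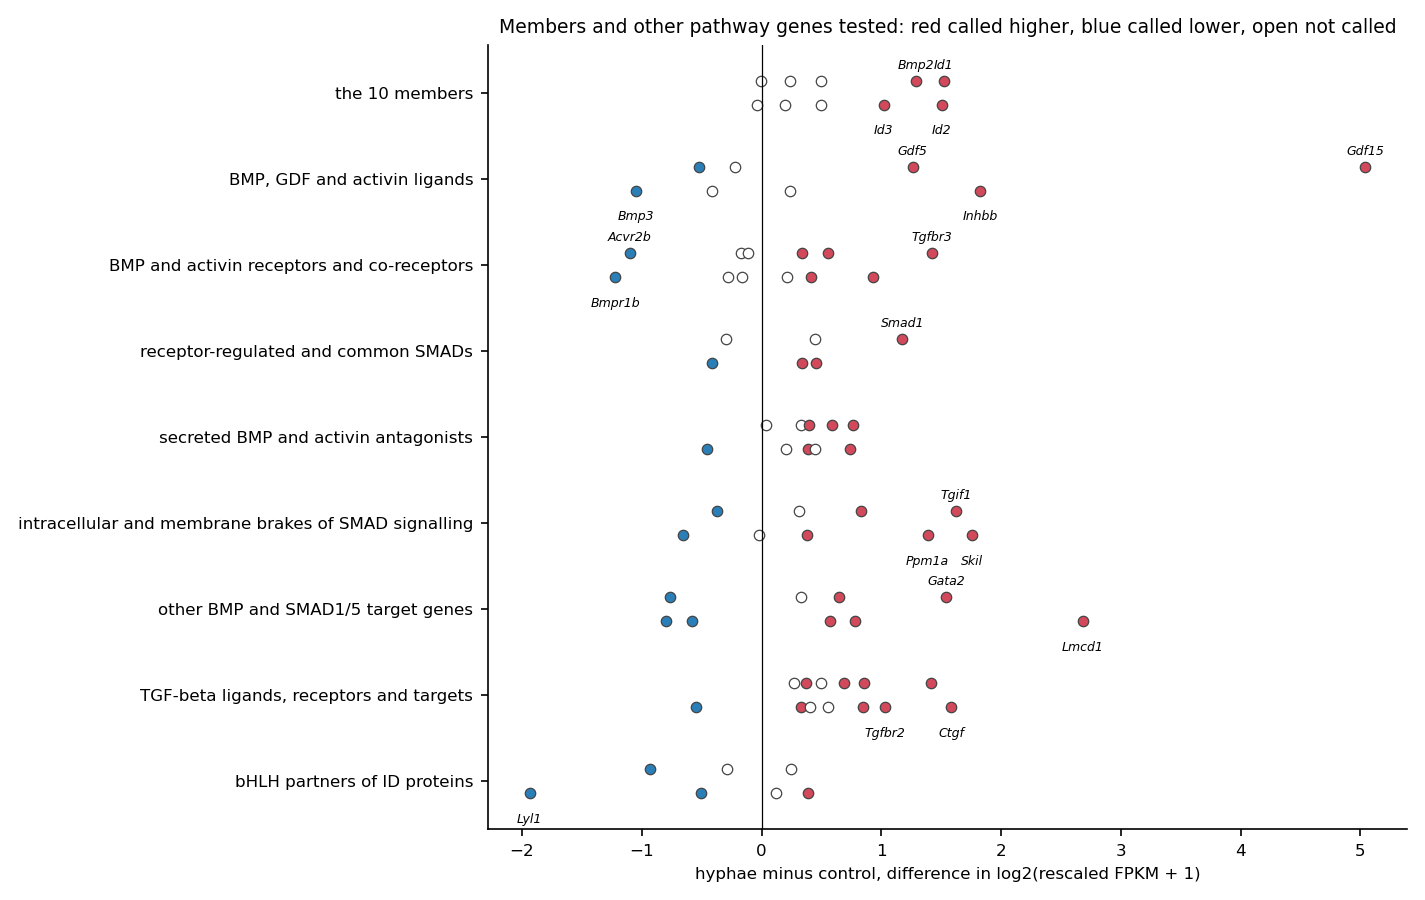
Difference in log2(rescaled FPKM + 1) between hyphae and control (horizontal axis) for the 10 genes and the 74 tested genes of 8 pathway lists (rows). Each point is 1 gene, red where called higher, blue where called lower and open where not called. Gdf15 lies farthest to the right at 5.04 and Lyl1 farthest to the left at −1.94.

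The genes whose pattern over the 9 libraries was most like each of the 10 were looked up by Pearson's r of rescaled log2 values. The search ran among tested genes with a mean of at least 5 FPKM. The 9 points share 3 groups and each r is a description. For Bmp2 they were Epc1 (r = 0.997) and Zbtb10 (0.994), for Id2 Phlda1 (0.995) and Ier5 (0.993), for Id1 Itpk1 (0.977) and Klf10 (0.969), and for Id3 Use1 (0.955) and Pdcd5 (0.951). For Bmpr2 they were Pros1 (0.971) and Tbkbp1 (0.962), for Bmp4 Ppp1r14a (0.935) and Cep63 (0.929), and for Inhba Marcksl1 (0.943) and Hcar2 (0.941). Smad7 lay nearest to Fabp12 (0.945) and Efl1 (0.938), Smad6 to Otud7b (0.932) and Tbcb (0.889), and Bmp6 to Rfwd3 (0.887) and Phactr1 (0.879).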

How the data were processed

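The authors deposited FPKM values with 2 decimals, 1 file per library, per the file headers. The submitters' processing notes list HISAT, Bowtie2 and build mm9 but no role or version for any tool. The quantification tool and any scaling between libraries are not given in the sources used here, and no counts were used, so no counting intervals are given.

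Values were transformed to log2(FPKM + 1), and fold changes of low genes are therefore understated. The 13761 genes that reached 1 FPKM in 3 or more libraries entered 1 limma-trend model (limma 3.58.1, R 4.3.3, robust moderation) with a term per group. Tests were two-sided with Benjamini-Hochberg adjustment, called at an adjusted p under 0.05. The fit was tested on simulated data. The members and lists were chosen with earlier results of these data known. From each pathway list, up to 4 genes with the largest differences between hyphae and control, and up to 2 for conidia, were named among those called alike as deposited and rescaled. For likeness the 2 nearest genes were named, and for marker lists the first 3 markers. Alternatives were rescaling, a pseudocount of 0.1, no filter, no trend, a 2-group fit, a replicate block and leaving out each library. Promoters come from RefSeq on GRCm38.p6. No file coordinates were used. One pathway gene that the naming rule picks is not reported here.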

Additional observations from a re-analysis of the deposited data

How the results depend on the processing

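Low values limit Inhba most, since its controls stand at or under 0.62 FPKM. Between hyphae and control, 5 of the 10 genes were called as deposited and 3 to 5 without 1 library (rescaled 4, and 4 to 5). Between hyphae and conidia 3 were called, 1 to 4 without 1 library, and 5 after rescaling, with or without the replicate block (1 to 5 rescaled without 1 library). Between conidia and control 0 of the 10 genes were called by limma under every alternative run (1 to 4 at an unadjusted p under 0.05). The share of all genes at that unadjusted p moved as well. As deposited it was 1555 of 13761 without conidia replicate 1, beside 1 of the 10 genes. Without conidia replicate 2 it was 4014, beside 4 of the 10. Of all genes, 95 were called between conidia and control, 47 rescaled and 43 without the filter. With the replicate block 57 were called, and 13 with block and rescaling. Without 1 library 0 to 1535 were called, and 0 to 1427 rescaled. Replicate numbers did not pair the libraries throughout. Deviations of same-numbered libraries correlated at −0.31 to 0.42, with 2 of 9 pairs over 0.1. The 0.42 was between control replicate 2 and hyphae replicate 2, above the 0.30 that was the highest between differently numbered libraries. For 1 of 9 libraries the same number was the best match in both other groups. With the block 4 of the 10 genes were called between hyphae and control, Smad7 being lost (adjusted p = 0.0887). Signs turned for values without a call. With rescaling, alone or with the replicate block, Bmp4 was at 0.20 and Smad6 at 0.24 between hyphae and control, Bmp6 at 0.0059 between conidia and control and Smad6 at 0.098 between hyphae and conidia. Without 1 library, differences as deposited spanned −0.18 to 0.24 for Bmpr2 between hyphae and control, −0.39 to 0.13 for Bmp6 and −0.099 to 0.19 for Smad6 between conidia and control, and −0.021 to 0.15 for Bmp4 between hyphae and conidia. The rescaled ones, chosen after seeing the data, spanned −0.35 to 0.19 for Bmp6 and −0.15 to 0.13 for Smad7 between hyphae and control, −0.31 to 0.24 for Bmp6 between conidia and control, and −0.20 to 0.17 for Bmp6 and −0.090 to 0.24 for Smad6 between hyphae and conidia. With a pseudocount of 0.1, the log2 ratio of Bmp2 to Bmp4 in hyphae was above control by 1.34 and above conidia by 1.26, and that of Bmp2 to endothelial markers was above conidia by 1.49. The ratio of Inhba to Bmp4 then differed by 1.2 between hyphae and control, 2.47 between conidia and control and −1.27 between hyphae and conidia, and that of Inhba to endothelial markers by 0.98, 2.03 and −1.05. The causes were not tested.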
